A study of Mus musculus with 6 samples.

Results

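The genes described here build, cut and move the actin cytoskeleton: the cytoplasmic actins, the ARP2/3 complex and its activators, formins and Ena/VASP proteins, monomer-binding, severing, capping and bundling proteins, non-muscle myosin II, and the products of Arhgdib, Cdc42, Dock2, Rhoa and Rhog. They were chosen by name, as a list of 45 symbols, of which 44 had a row among the 30803 rows of the deposited tables. The remaining symbol, Hem1, is an older name of Nckap1l, which is itself on the list. All 44 passed the limit on low values (1 FPKM on average across the libraries, where FPKM counts fragments for each kilobase of a transcript relative to the size of the library), as did 12037 genes in all. No gene was chosen for its own value, but the list was drawn up with earlier results of these data known.

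RNA was sequenced from cells labelled as hematopoietic stem cells, taken from the bone marrow of wild-type mice at 12 months of age. The cells had been sorted by surface MHC class II (MHCII), the complex that presents peptides to helper T cells, into a high (MHCII-hi) and a low (MHCII-lo) fraction. Each fraction had 3 libraries. The age, genotype and tissue were shared by both fractions, and the labels give neither the gates of the sort nor the number of animals per library. Whether the libraries of a fraction stem from different animals is not stated, and p-values therefore reflect the scatter of these libraries alone, which may be technical.

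Cells crawl, divide and take up particles by assembling actin monomers into filaments. Profilin and the beta-thymosins bind the monomers. The ARP2/3 complex, switched on by WASP and by the WAVE complex, starts branched networks, whereas formins and Ena/VASP proteins lengthen straight filaments. Capping protein stops growth at the fast-growing end, cofilin and gelsolin cut filaments, plastin and coronin organise them, and myosin II contracts them. Blood cells make several versions of these proteins that other tissues hardly use, among them WASP, HEM1, L-plastin, coronin 1A and DOCK2, and loss of WASP, HEM1, coronin 1A or DOCK2 in humans causes immunodeficiency.

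The libraries resembled each other within a fraction, with correlations of log2 values of 0.991 to 0.993 within and 0.945 to 0.947 between fractions. Their summed FPKM were 327364 to 346651, and the number of reads behind them is unknown. Of 10 stem cell markers, 5 stayed under a mean of 1 FPKM (Procr, Slamf1, Mecom, Fgd5 and Hoxb5). Each of 22 neutrophil markers was called higher in the MHCII-hi fraction, and together they took 2.92 to 2.95% of the summed FPKM of MHCII-lo libraries and 16.4 to 16.5% of those of MHCII-hi libraries. Every value below was measured beside that difference, and its part in the results was not tested. Monocyte and macrophage markers fell in 7 of 8 genes and took 0.283 to 0.292% against 0.158 to 0.166%. Since the libraries are bulk, fewer cells of a type and less RNA per cell cannot be told apart. Of 8 muscle markers, 6 were found, Cnn1 and Des were at 0 in all libraries and the summed level was 1.35 to 1.42 FPKM for MHCII-lo and 2.36 to 2.67 FPKM for MHCII-hi.

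Most of the actin and motility genes were higher in the MHCII-hi fraction. With a limma adjusted p below 0.05, 34 of the 44 were higher, 4 lower and 6 not called, beside 20.4% of all tested genes called higher and 40.6% called lower. The median log2 fold change of the 44 was 0.22, against −0.12 for all tested genes. In 40 of the 44 the libraries of one fraction lay wholly above those of the other (35 higher and 5 lower), beside 67.6% of all tested genes (22.6% higher and 45.0% lower). Many of these differences were small: 8 genes were at least 1.5-fold higher in mean FPKM and 2 at least 1.5-fold lower, beside 9.3% and 11.6% of all tested genes. The group as a whole took 2.11 ± 0.00698% of all FPKM of MHCII-lo libraries and 2.59 ± 0.0141% of those of MHCII-hi libraries (SD, n = 3). Scaling shifted the count. After median-ratio scaling 39 were higher and 3 lower, beside 27.0% and 27.3% of all tested genes. After quantile normalization 35 were higher and 4 lower, beside 23.4% and 33.4%, and after median centring 36 and 3, beside 24.8% and 30.6%. With neutrophil markers left out of the total, 40 were higher and 3 lower, beside 28.8% and 25.2%. Over all tested genes, the share of calls that were higher was 33.4% as deposited, and 49.8%, 41.2%, 44.8% and 53.3% in the order of these 4 scalings. The median of all genes moved with it, from −0.12 to −0.02 under median-ratio scaling and to −0.003 without neutrophil markers.

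**Figure D1:**
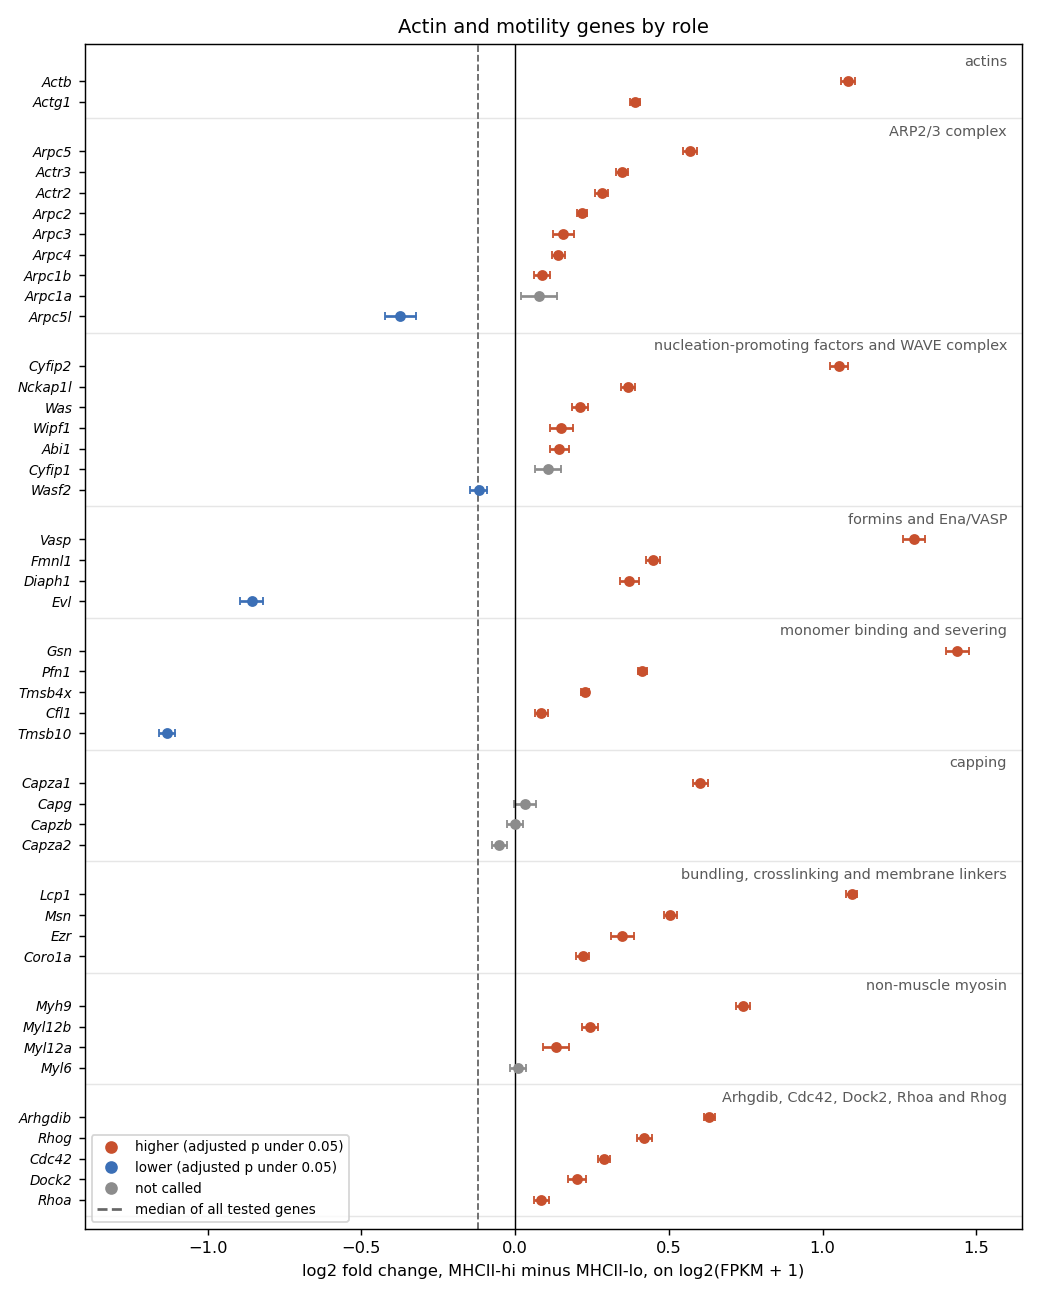
Log2 fold change of each of the 44 genes (points, with limma standard errors as bars), the MHCII-hi mean minus the MHCII-lo mean of log2(FPKM + 1), grouped by role, with 3 libraries per fraction. Most points lie to the right of 0 and of the dashed line, the median of all tested genes at −0.12, and Arpc5l, Wasf2, Evl and Tmsb10 are called lower.

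Both cytoplasmic actins rose, and beta-actin rose more. Actb (chromosome 5, 142903115 to 142906754, GRCm38) stood at 411, 402 and 427 FPKM in MHCII-lo and 871, 881 and 877 FPKM in MHCII-hi. Actg1, gamma-actin (chromosome 11, 120345690 to 120348542), stood at 605, 622 and 616 FPKM in MHCII-lo and 809.6, 798 and 807 FPKM in MHCII-hi. No library of one fraction overlapped those of the other for either gene, and the 3 MHCII-hi values of Actb lay within 11 FPKM of each other. Actb was 2.12-fold higher (log2 fold change 1.08 with SE 0.0232, limma adjusted p 9.80e-08), and Actg1 was 1.31-fold higher (log2 fold change 0.39 with SE 0.0157, limma adjusted p 1.79e-06). The order of the 2 genes turned with the fraction: Actg1 was the more abundant per length in MHCII-lo and Actb in MHCII-hi. The share of Actb in the sum of both was 40.5, 39.3 and 40.9% in MHCII-lo and 51.8, 52.5 and 52.1% in MHCII-hi, a step of 11.9 percentage points. Such a share is taken within a library and does not move when all its values are scaled by a single factor. Quantile normalization is not such a scaling, and shares were not computed after it. The coding sequences are close to identical and both genes have processed pseudogenes, so how fragments were divided between them is uncertain. The summed actin level went from 1028 ± 14.1 to 1681 ± 2.42 FPKM.

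Actin genes are classic targets of serum response factor (SRF), which binds the CArG box and is held in check by free actin monomers through its cofactors, the MRTFs. In the RefSeq promoter table (GRCm38.p6, 250 bases before to 50 after each start), 39 of the 44 genes matched, with 53 entries. Actb, Arpc5l, Nckap1l, Cyfip1 and Diaph1 had none. A CArG box, searched on both strands, was found in 3 of the 53 entries (5.66%), those of Actg1, Arpc4 and Myl6, and in 1.63% of all 32851 promoters of the same length. The Actg1 box lies 90 bases before the start and is shown because it is the 1 of the 3 that lies outside annotated exons. The PU.1 core GAGGAAGT, a motif of a factor central to myeloid and B cell genes, was found on either strand in the entries of Rhog, Fmnl1 and Arpc1b (5.66% of entries, 3.2% of all promoters). Rhog and Fmnl1 are shown because their cores lie before the start, at 15 and 50 bases. The capitals mark the motif, and the PU.1 core reads as its reverse complement, ACTTCCTC, on these strands.
Actg1 promoter with CArG box, chr11:120348543-120348645, minus strand: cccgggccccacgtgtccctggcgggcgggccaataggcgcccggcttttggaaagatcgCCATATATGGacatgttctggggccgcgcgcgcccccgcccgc
Fmnl1 promoter with PU.1 core, chr11:103171028-103171106, plus strand: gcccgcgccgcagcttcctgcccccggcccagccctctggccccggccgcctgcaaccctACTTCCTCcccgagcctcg
Rhog promoter with PU.1 core, chr7:102250124-102250193, minus strand: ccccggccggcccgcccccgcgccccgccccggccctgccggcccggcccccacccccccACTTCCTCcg
Of commoner elements, the GC box GGGCGG was in 37 of the 53 entries (69.8%), beside 62.5% of the promoters of tested genes and 35.7% of all. The CCAAT box was in 12 (22.6%), beside 38.5% and 37.4%, and TATAAA in 4 (7.55%), beside 7.05% and 13.6%. These are matches of letters and not measured binding. Of the genes with a CArG box, Actg1 rose as described, Arpc4 was at 85.3 ± 1.35 to 94.2 ± 1.01 FPKM (log2 fold change 0.14 with SE 0.0218, limma adjusted p 0.00137), and Myl6 was not called.

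The ARP2/3 complex holds 7 proteins, of which 2 come in alternative versions encoded by Arpc1a or Arpc1b and by Arpc5 or Arpc5l. Of its 9 genes, 7 rose, 1 fell and 1 was not called. Their summed level was 994, 979.9 and 999 FPKM in MHCII-lo and 1199, 1200 and 1205 FPKM in MHCII-hi. Arpc5 stood at 141, 138 and 143 FPKM in MHCII-lo and 205, 209 and 212 FPKM in MHCII-hi. Its relative Arpc5l stood at 9.32, 8.75 and 8.34 FPKM in MHCII-lo and 6.83, 6.41 and 6.44 FPKM in MHCII-hi. The fractions did not overlap for either gene and parted in opposite directions. Arpc5 was 1.49-fold higher (log2 fold change 0.57 with SE 0.0236, limma adjusted p 2.03e-06) and Arpc5l 1.34-fold lower (log2 fold change −0.37 with SE 0.0506, limma adjusted p 6.97e-04). Arpc5 therefore made up 94.1 ± 0.363% to 97.0 ± 0.157% of the sum of the pair. The core subunits that hold the complex together and mimic an actin dimer moved less. Arpc2, the most abundant subunit per length, stood at 242, 239 and 238 FPKM in MHCII-lo and 278, 282 and 277 FPKM in MHCII-hi. Actr3, one of the actin-related subunits, stood at 201, 201 and 208 FPKM in MHCII-lo and 257, 260.3 and 258 FPKM in MHCII-hi. The other one, Actr2, stood at 105, 106 and 106 FPKM in MHCII-lo and 129.7, 126 and 129.9 FPKM in MHCII-hi. All 3 were higher in every MHCII-hi library than in any MHCII-lo library, by 1.16-fold, 1.27-fold and 1.22-fold (limma adjusted p 3.71e-05, 9.54e-06 and 2.93e-05). Arpc3 (92.1 ± 2.29 to 103 ± 4.04 FPKM) and Arpc4 rose by similar amounts (log2 fold changes 0.16 and 0.14). Arpc1b, the version that predominates in blood cells, was at 92.9 ± 0.989 to 98.8 ± 2.64 FPKM (log2 fold change 0.09, limma adjusted p 0.0215). That call was lost without an intensity trend (adjusted p 0.0725) and without MHCII-lo replicate 2 (0.0664) or 3 (0.0552) or MHCII-hi replicate 3 (0.0565). Arpc1a was not called at 22.6 ± 1.45 to 23.9 ± 1.42 FPKM (adjusted p 0.293) but was called higher after median-ratio scaling (0.0294) and without neutrophil markers in the total (0.0186). The share of Arpc1b in that pair did not part the fractions, at 80.4 ± 0.837% to 80.5 ± 1.24% (exact permutation p 0.9, two-sided).

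Among the activators of ARP2/3 on the list of 44, the largest difference was in a subunit of the WAVE complex. Cyfip2 (chromosome 11, 46193850 to 46312859) stood at 35.2, 34.8 and 35.8 FPKM in MHCII-lo and 74.6, 72.1 and 76.3 FPKM in MHCII-hi. Its relative Cyfip1, which binds Rac in the same complex, stood at 9.96, 9.14 and 9.33 FPKM in MHCII-lo and 10.3, 10.2 and 10.4 FPKM in MHCII-hi. The libraries of the fractions lay apart for both, but by a far wider gap for Cyfip2. Cyfip2 was 2.11-fold higher (log2 fold change 1.05 with SE 0.029, limma adjusted p 3.12e-07). Cyfip1 did not pass the test (log2 fold change 0.11, limma adjusted p 0.0579), although it did under the 4 other scalings and without MHCII-lo replicate 1 (adjusted p 0.0267). The share of Cyfip1 in the pair was 22.1, 20.8 and 20.7% in MHCII-lo and 12.1, 12.4 and 11.9% in MHCII-hi. Nckap1l, which encodes HEM1, the blood cell scaffold of the complex, stood at 51.9, 52.7 and 53.4 FPKM in MHCII-lo and 67.8, 68.7 and 68.2 FPKM in MHCII-hi, 1.30-fold higher with no overlap (log2 fold change 0.37 with SE 0.0223, limma adjusted p 1.37e-05). Abi1, an adaptor of the complex, was at 41.5 ± 0.567 to 46.0 ± 1.52 FPKM (limma adjusted p 0.00625). Wasf2, which encodes the WAVE protein that activates ARP2/3, was the 1 of the 7 listed genes found in this role that was called lower: it stood at 35.3, 35.2 and 36.5 FPKM in MHCII-lo and 33.0, 32.8 and 32.5 FPKM in MHCII-hi. Among WAVE complex genes outside the 44, Brk1 (95.4 ± 5.51 to 78.1 ± 2.52 FPKM, limma adjusted p 0.00152) and Abi2 (1.75 ± 0.187 to 1.08 ± 0.0854 FPKM, limma adjusted p 0.00537), both named after their values were seen, were also called lower. The Wasf2 call (log2 fold change −0.12, limma adjusted p 0.00706) was lost after median-ratio scaling (adjusted p 0.894) and median centring (0.178). The sign turned, to 0.017, without neutrophil markers in the total (adjusted p 0.606). Relative to the median of all tested genes, the log2 fold change of Wasf2 was 0.001. Was, the blood cell activator WASP that answers to CDC42, stood at 49.1, 50.8 and 51.5 FPKM in MHCII-lo and 59.6, 58.2 and 57.8 FPKM in MHCII-hi, wholly apart and 1.16-fold higher (limma adjusted p 5.83e-04). Its partner Wipf1, which protects WASP from breakdown, was at 23.4 ± 0.613 to 26.1 ± 0.968 FPKM (limma adjusted p 0.0114).

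The proteins that lengthen straight filaments included relatives that moved in opposite directions. Vasp (chromosome 7, 19256929 to 19271817) stood at 55.9, 60.9 and 60.4 FPKM in MHCII-lo and 147, 147 and 145 FPKM in MHCII-hi. Evl (chromosome 12, 108554720 to 108688516), of the same Ena/VASP family, stood at 11.9, 12.2 and 12.4 FPKM in MHCII-lo and 6.18, 6.26 and 6.44 FPKM in MHCII-hi. Every MHCII-hi library was above every MHCII-lo library for Vasp and below for Evl. Vasp was 2.48-fold higher (log2 fold change 1.30 with SE 0.0356, limma adjusted p 3.08e-07) and Evl 1.94-fold lower (log2 fold change −0.86 with SE 0.0366, limma adjusted p 2.33e-06). The share of Vasp in the pair was 82.4, 83.3 and 82.9% in MHCII-lo and 96.0, 95.9 and 95.7% in MHCII-hi. The formins Diaph1, an effector of RhoA, and Fmnl1, a formin of blood cells, rose by nearly the same amount. Diaph1 went from 36.3 ± 0.754 to 47.3 ± 1.38 FPKM and Fmnl1 from 60.8 ± 0.992 to 83.3 ± 1.10 FPKM (log2 fold changes 0.37 and 0.45, limma adjusted p 6.85e-05 and 6.07e-06). Their shares overlapped between the fractions (exact permutation p 0.2, two-sided).

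**Figure D2:**
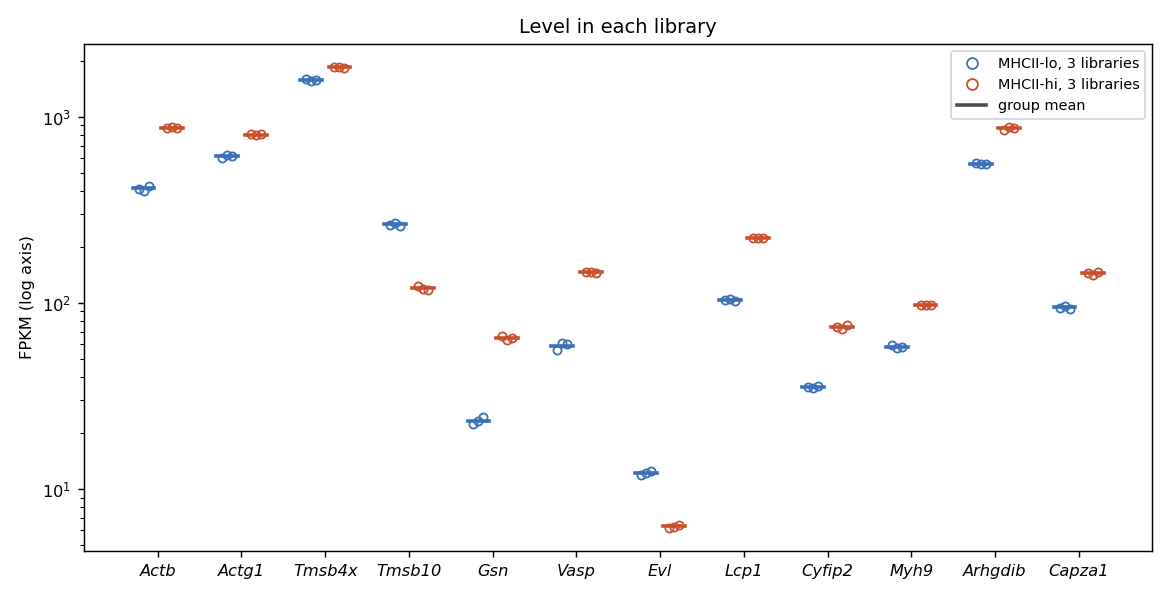
FPKM of 12 genes in each of the 6 libraries on a log axis (open circles), with the mean of each fraction as a bar. The 3 libraries of a fraction lie close together, Tmsb10 and Evl are lower in MHCII-hi and the other 10 genes are higher.

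Genes that buffer actin monomers went opposite ways. Tmsb4x, thymosin beta-4, the main store of actin monomers in blood cells and the most abundant gene of the list, stood at 1591, 1554 and 1581 FPKM in MHCII-lo and 1846, 1856 and 1833 FPKM in MHCII-hi. Tmsb10, thymosin beta-10 (chromosome 6, 72957347 to 72958748), stood at 263, 271 and 259 FPKM in MHCII-lo and 124, 119.5 and 117 FPKM in MHCII-hi. The fractions did not overlap for either. Tmsb4x was 1.17-fold higher (log2 fold change 0.23 with SE 0.0132, limma adjusted p 1.06e-05) and Tmsb10 2.20-fold lower (log2 fold change −1.13 with SE 0.0269, limma adjusted p 1.61e-07), the largest decrease of the list. Tmsb4x made up 85.8, 85.2 and 85.9% in MHCII-lo and 93.7, 94.0 and 94.0% in MHCII-hi of the pair. Both are short genes with processed pseudogenes, and their FPKM are sensitive to the transcript length used. Pfn1, profilin, which feeds monomers to growing ends, rose from 225 ± 1.23 to 300.4 ± 2.86 FPKM (log2 fold change 0.41, limma adjusted p 1.40e-06). Set against the summed actins of the same library, a ratio chosen after the values were seen, the 2 thymosins went from 1.79 ± 0.0321 to 1.17 ± 0.00947 and Pfn1 from 0.219 ± 0.00312 to 0.179 ± 0.00189. Both ratios were lower in every MHCII-hi library than in any MHCII-lo library.

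Of the 2 listed genes of filament-cutting proteins, Gsn differed far more than Cfl1. Gsn, the calcium-activated severing and capping protein gelsolin (chromosome 2, 35256380 to 35307892), stood at 22.5, 23.2 and 24.3 FPKM in MHCII-lo and 66.5, 63.3 and 64.8 FPKM in MHCII-hi. This was the largest increase of the list, 2.78-fold and without overlap (log2 fold change 1.44 with SE 0.0369, limma adjusted p 2.34e-07). Cfl1, cofilin, stood at 341, 341 and 343 FPKM in MHCII-lo and 353, 365 and 369 FPKM in MHCII-hi, without overlap (log2 fold change 0.09, limma adjusted p 0.00993), a call lost without an intensity trend (adjusted p 0.0695). Against the actins, Cfl1 went from 0.332 ± 0.0038 to 0.215 ± 0.00503, a ratio also chosen after its values were seen. Capg, a gelsolin relative that caps but does not cut, stood at 33.3, 35.7 and 33.1 FPKM in MHCII-lo and 34.7, 35.3 and 34.4 FPKM in MHCII-hi, and the fractions overlapped. It did not pass the test (log2 fold change 0.03, limma adjusted p 0.469), although it was called higher after median-ratio scaling (adjusted p 0.014) and without neutrophil markers in the total (0.00741). Gsn made up 40.3, 39.3 and 42.4% in MHCII-lo and 65.7, 64.2 and 65.3% in MHCII-hi of the sum of Gsn and Capg, the widest step among the 14 pairs compared.

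Capping protein is a dimer of an alpha subunit, from Capza1 or Capza2, and a beta subunit, from Capzb. Of these genes Capza1 alone was called. It stood at 93.9, 96.9 and 93.1 FPKM in MHCII-lo and 144, 141 and 147 FPKM in MHCII-hi, 1.52-fold higher without overlap (log2 fold change 0.60 with SE 0.0252, limma adjusted p 2.10e-06). Capza2 stood at 55.3, 53.2 and 55.1 FPKM in MHCII-lo and 52.3, 52.8 and 52.5 FPKM in MHCII-hi, the lowest MHCII-lo library just above the highest MHCII-hi library. Capza2 did not pass the test (log2 fold change −0.05, limma adjusted p 0.108). Capzb was at 97.8 ± 2.70 to 97.7 ± 1.11 FPKM (limma adjusted p 0.967). The signs of Capza2 and Capzb turned with the scaling. Without neutrophil markers in the total both were called higher (adjusted p 0.0238 and 0.00395), and Capzb also after median-ratio scaling (0.00945). The share of Capza1 in the alpha subunits, which a single factor per library does not move, was 62.9, 64.6 and 62.9% in MHCII-lo and 73.4, 72.8 and 73.7% in MHCII-hi. The ratio of the summed alpha subunits to Capzb, set up once the values were known, went from 1.53 ± 0.0363 to 2.01 ± 0.0142.

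**Figure D3:**
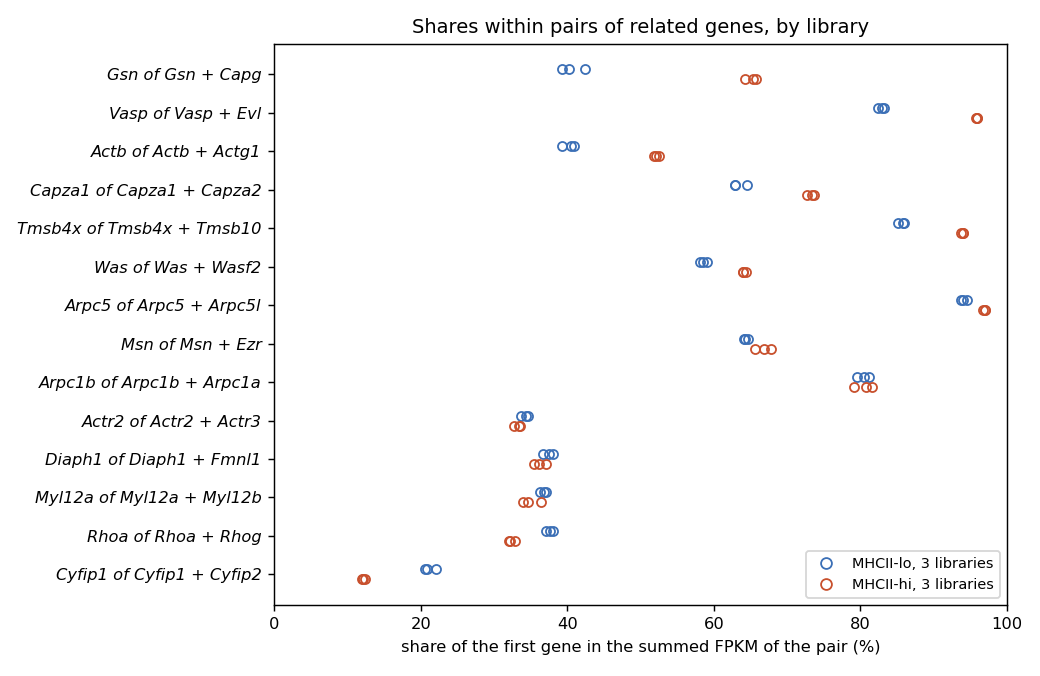
Share of the first gene in the summed FPKM of each of 14 pairs of related genes, by library (blue circles for MHCII-lo, orange circles for MHCII-hi). The fractions are parted in 11 pairs, most widely for Gsn and Capg, and overlap for Arpc1b and Arpc1a, Diaph1 and Fmnl1, and Myl12a and Myl12b.

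The 14 pairs were each tested by an exact permutation of the 6 libraries, which cannot give a two-sided p under 0.1 with 3 against 3. In 11 pairs the shares did not overlap and reached that smallest p of 0.1 (0.127 after Benjamini-Hochberg adjustment over the pairs), so none passes a threshold of 0.05. The widest of these steps was 24.4 percentage points for Gsn, and the narrowest was for Actr2 in Actr2 and Actr3, whose share went from 34.2 ± 0.432% to 33.2 ± 0.466%.

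All 4 listed genes that bundle filaments or tie them to the membrane rose. Lcp1, L-plastin, the bundling protein of blood cells (chromosome 14, 75131101 to 75230842), stood at 104, 104 and 103 FPKM in MHCII-lo and 223, 222 and 223 FPKM in MHCII-hi. It was 2.15-fold higher (log2 fold change 1.09 with SE 0.0168, limma adjusted p 2.42e-08), and no other gene of the list had a smaller p. Coro1a, coronin 1A, a filament-binding protein that lymphocytes need for survival and migration, stood at 279, 283 and 290.0 FPKM in MHCII-lo and 329, 336 and 327 FPKM in MHCII-hi, 1.17-fold higher and without overlap (limma adjusted p 1.26e-04). Moesin and ezrin link filaments to the plasma membrane. Msn, moesin, the form that leukocytes use most, stood at 91.6, 93.1 and 94.2 FPKM in MHCII-lo and 132, 131 and 134 FPKM in MHCII-hi. Ezr, ezrin, stood at 50.2, 51.7 and 52.6 FPKM in MHCII-lo and 69.4, 65.0 and 63.3 FPKM in MHCII-hi. Both parted the fractions, and Msn rose slightly more (log2 fold changes 0.51 and 0.35, limma adjusted p 1.79e-06 and 2.74e-04). Msn made up 64.3 ± 0.23% to 66.8 ± 1.12% of the pair. The rise did not extend to the following relatives outside the list, named after their values were seen. Rdx, radixin, a relative of moesin and ezrin, fell from 38.3 ± 0.845 to 32.2 ± 0.536 FPKM (limma adjusted p 3.27e-04). The coronin gene Coro1b fell from 59.7 ± 1.99 to 49.2 ± 0.663 FPKM (limma adjusted p 2.82e-04). Coro2a was also called lower (limma adjusted p 0.024), and Coro1c and Coro7 were not called.

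Among the listed genes of non-muscle myosin II, the heavy chain gene Myh9 differed and the light chain genes did so less or not at all. Myh9, the heavy chain of myosin IIA (chromosome 15, 77760587 to 77842175), stood at 59.1, 56.9 and 57.7 FPKM in MHCII-lo and 97.5, 97.0 and 97.6 FPKM in MHCII-hi. It was 1.68-fold higher without overlap (log2 fold change 0.74 with SE 0.0226, limma adjusted p 4.77e-07). The essential light chain gene Myl6 stood at 98.4, 98.6 and 102 FPKM in MHCII-lo and 98.1, 102 and 100.2 FPKM in MHCII-hi with the fractions mixed. Its level per length was above that of the heavy chain in every library, though only narrowly in MHCII-hi. Myl6 did not pass the test (log2 fold change 0.01, limma adjusted p 0.758). It was called higher after median-ratio scaling (adjusted p 0.0046), median centring (0.0302) and without neutrophil markers in the total (0.00282), and its sign turned without MHCII-hi replicate 2 (−0.006). The regulatory light chains are encoded by 2 neighbouring and closely similar genes. Myl12b was at 87.5 ± 1.73 to 104 ± 2.63 FPKM (limma adjusted p 2.70e-04) and Myl12a at 50.9 ± 0.911 to 55.9 ± 3.04 FPKM (limma adjusted p 0.0296). The annotation also holds a second Myl12b gene whose span overlaps that of Myl12a by 8553 bases, so the split between them is uncertain. The call for Myl12a was lost without a filter (adjusted p 0.0648), without a trend (0.056), without MHCII-lo replicate 1 (0.0753) or 2 (0.0833) and without MHCII-hi replicate 1 (0.0814) or 3 (0.0819). The ratio of Myh9 to Myl6, set up once the values were known, went from 0.582 ± 0.0174 to 0.971 ± 0.0237.

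Arhgdib, Cdc42, Dock2, Rhoa and Rhog all rose. Arhgdib, a GDP dissociation inhibitor of blood cells (chromosome 6, 136923655 to 136941899), stood at 566, 559 and 557 FPKM in MHCII-lo and 853, 880.0 and 876 FPKM in MHCII-hi. It was 1.55-fold higher without overlap (log2 fold change 0.63 with SE 0.0167, limma adjusted p 2.62e-07). Rhog, which acts upstream of Rac, stood at 104, 104 and 102 FPKM in MHCII-lo and 138, 142 and 136 FPKM in MHCII-hi. Rhoa, which drives formins and myosin contraction, stood at 63.7, 61.7 and 61.6 FPKM in MHCII-lo and 65.2, 66.8 and 66.4 FPKM in MHCII-hi. The fractions did not overlap for either, but the gap was 1.34-fold for Rhog and 1.06-fold for Rhoa (limma adjusted p 9.81e-06 and 0.0204). The Rhoa call was lost with a replicate block (adjusted p 0.0544) and without a trend (0.0669). The same held without MHCII-lo replicate 2 (0.0638) or 3 (0.0628) and without MHCII-hi replicate 2 (0.0619) or 3 (0.0577). Rhoa made up 37.6 ± 0.447% to 32.3 ± 0.452% of the sum of Rhoa and Rhog. Cdc42, which activates WASP, went from 181 ± 2.86 to 222 ± 1.64 FPKM (limma adjusted p 1.89e-05). Dock2, the exchange factor that turns on Rac in leukocytes, went from 25.7 ± 0.577 to 29.7 ± 0.373 FPKM (limma adjusted p 9.13e-04).

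Other genes of actin control, in 7 lists of genes that are not among the 44, were called in both directions, apart from the muscle list. The lists were drawn up with earlier results of these data known. Their counts stand beside the 20.4% of all tested genes called higher and 40.6% called lower, and their medians beside −0.12. Among 46 tested genes of other actin-binding and turnover proteins, 27 were higher and 12 lower, with a median log2 fold change of 0.24. Cap1, which recycles monomers from cofilin, rose from 106 ± 0.917 to 204 ± 1.27 FPKM and Cnn2, a calponin, from 69.2 ± 0.475 to 136 ± 0.238 FPKM (limma adjusted p 5.52e-08 and 6.12e-08). Another calponin gene, Cnn3, named after its values were seen, fell from 6.32 ± 0.603 to 1.15 ± 0.11 FPKM (limma adjusted p 2.95e-06). Of 22 adaptors that tie integrins to actin, 14 were higher and 5 lower, with a median of 0.19. They included Zyx, zyxin, which gathers VASP at adhesions, from 38.8 ± 0.985 to 73.8 ± 1.87 FPKM, and Pxn, paxillin, from 19.7 ± 0.674 to 32.6 ± 0.569 FPKM (limma adjusted p 7.40e-07 and 4.23e-06).

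Other nucleation factors had 11 of 32 higher and 11 lower, beside 20.4% and 40.6% of all tested genes, with a median of −0.02 that was 0.08 after median-ratio scaling. Hcls1, the blood cell relative of cortactin, rose from 77.8 ± 1.33 to 123 ± 3.73 FPKM and Abi3, a WAVE complex adaptor, from 2.14 ± 0.234 to 6.78 ± 0.567 FPKM (limma adjusted p 2.42e-06 and 1.25e-05). Tropomyosins and other myosins had 4 of 13 higher and 5 lower, with a median of −0.12, the same as for all tested genes. After median-ratio scaling 5 were higher and 2 lower. The class I myosin gene Myo1f rose from 53.0 ± 2.48 to 82.8 ± 1.15 FPKM and the vesicle motor gene Myo5a from 10.1 ± 0.153 to 14.0 ± 0.271 FPKM (limma adjusted p 1.03e-05 and 4.55e-05).

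Of 7 tested genes of SRF and its cofactors, 2 were higher and 2 lower. Mrtfa, the actin-sensing cofactor of SRF, rose from 10.1 ± 0.154 to 13.9 ± 0.438 FPKM (limma adjusted p 7.84e-05). Srf itself was at 19.8 ± 0.738 to 19.9 ± 0.923 FPKM and Mrtfb at 1.08 ± 0.356 to 1.05 ± 0.347 FPKM. Neither was called (limma adjusted p 0.937 and 0.946), and both were named after their values were seen. Elk3, a partner of SRF from the ETS family, fell from 8.96 ± 0.413 to 5.94 ± 0.275 FPKM (limma adjusted p 1.35e-04). Muscle actins and contractile genes were nearly silent: 18 of the 21 found stayed under a mean of 1 FPKM. The 2 called were Tnnt1 (1.75 ± 0.159 to 3.50 ± 0.578 FPKM) and the smooth muscle actin gene Acta2 (0.817 ± 0.12 to 1.74 ± 0.172 FPKM), with limma adjusted p 0.00121 and 0.0013. The remaining list, of tubulins, vimentin, lamins and microtubule regulators, had 3 of 21 higher and 12 lower, beside 20.4% and 40.6% of all tested genes. Its median of −0.14 (−0.03 after median-ratio scaling) was close to the −0.12 of all tested genes. Stmn1, stathmin, which destabilises microtubules and is abundant in dividing cells, fell from 213 ± 4.99 to 134 ± 1.27 FPKM, and Tubb5, a beta-tubulin, from 243 ± 3.61 to 168 ± 1.75 FPKM (limma adjusted p 7.72e-07 and 1.07e-06).

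**Figure D4:**
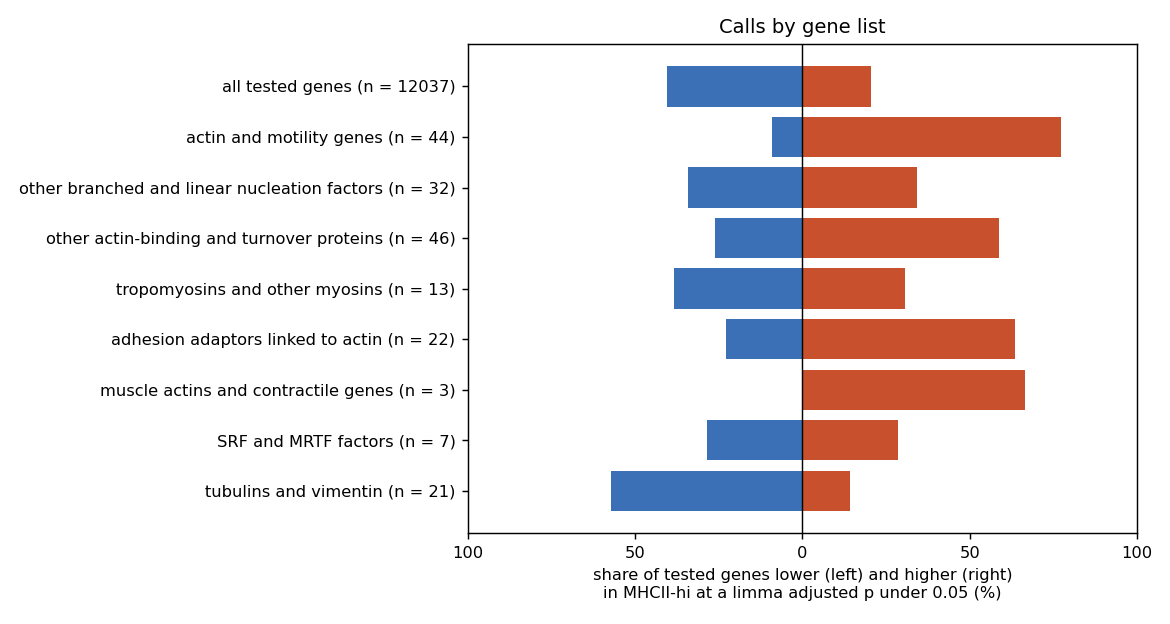
Share of tested genes called higher (right) or lower (left), for all 12037 tested genes, the 44 actin and motility genes and 7 lists of other cytoskeletal genes, with the number tested in parentheses. Bars extend further right for actin-binding proteins, adhesion adaptors and the muscle list, which rests on 3 tested genes, and further left for tubulins and vimentin.

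Some values may include reads of other genes. The spans of 30 of the 44 genes overlap another annotated gene, 25 of them on the opposite strand and 15 on the same strand. The library kit keeps strand, but whether the quantification used it is not stated. Reads shared in these overlaps cannot be assigned from FPKM.

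**Figure D5:**
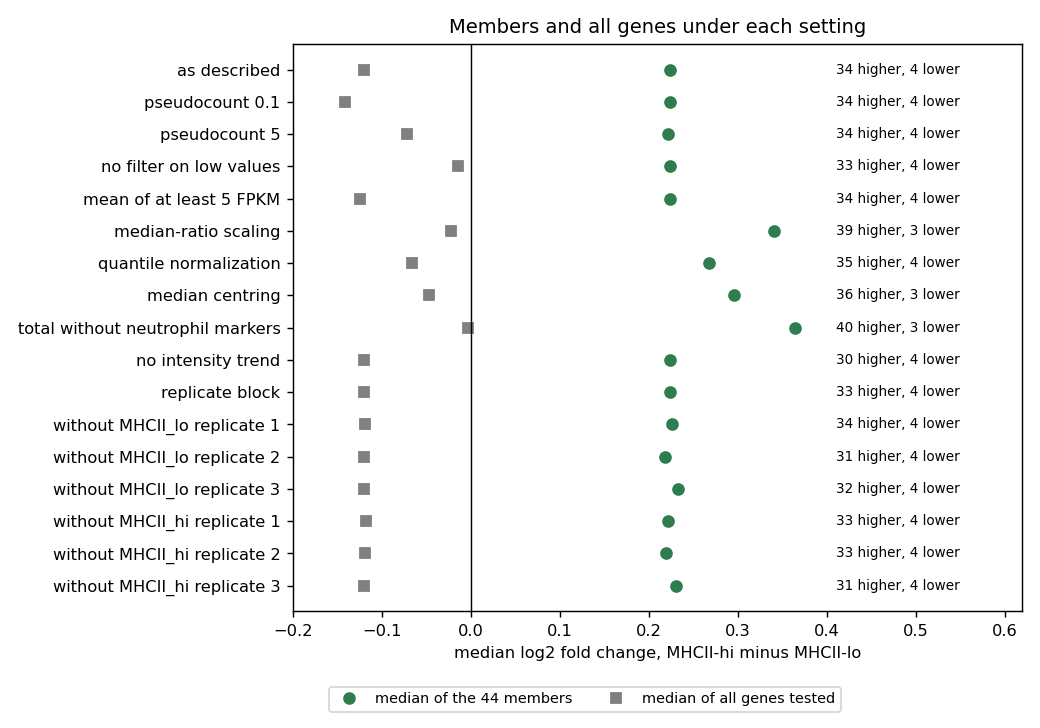
Median log2 fold change of the 44 genes (circles) and of all genes tested (squares) as described and under 16 alternative settings, with the number of the 44 called higher and lower. The median of the 44 stays above 0 and above that of all genes in each setting, between 0.22 and 0.36.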

How the data were processed

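Per the labels' protocols, a spin column kit yielded the RNA and a stranded poly(A) kit the libraries. The tools are listed as fastp, HISAT2 and StringTie, with GRCm38 (mm10) and no versions, per the submitters' processing notes. The authors deposited 1 table per library with values taken to be FPKM. The unit was inferred from their 2 decimals, their unequal sums and StringTie's output, since no header names it. No clear step of 1 fragment was found among low values of genes with 1 exon, 600 to 4000 bases long (best mean cosine 0.083 to 0.165), so depth is unknown and no counting error is given.

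From the 30803 rows, 70 rows of repeated symbols were dropped, keeping the highest mean. Genes averaging 1 FPKM or more were tested on log2(FPKM + 1), which understates changes of low genes. The fit used limma 3.58.1 (R 4.3.3) with an intensity trend and no term but the fraction, and Benjamini-Hochberg adjustment over 12037 genes at 0.05. On simulated data with 12037 genes, genes changed 1.25-fold were recovered in 52%, 1.5-fold in 82%, 2-fold in 90% and 4-fold in 100% of cases. The simulation gave 4 false among 166 calls. It changed far fewer genes than were called in the real data. Its values therefore do not carry over to the comparison of the fractions, whose recovery and false calls remain unknown. The members, lists and tests were chosen with earlier results of these data known. Values of every library are given for the 10 members with the largest called change, the most abundant of each role and both genes of pairs whose shares do not overlap, and the 2 genes with the smallest p are named from each other list. Further gene lists are not reported here. Marker lists for dendritic, B, T and NK, erythroid, megakaryocyte, mast, endothelial and stromal cells are given in the closing observations. Alternatives were other pseudocounts, filters and scalings, no trend, a replicate block and leaving out each library.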

Additional observations from a re-analysis of the deposited data

How the results depend on the processing

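The direction and call of 33 of the 44 genes held under all 16 alternatives (30 higher and 3 lower: Tmsb10, Evl and Arpc5l). Over the alternatives, 30 to 40 of the 44 were called higher and 3 or 4 lower. Genes called lower among all tested genes numbered 4883, and 3029 without neutrophil markers in the total. With the replicate number as a block, 33 members were higher and 4 lower, and 2305 and 4659 of all genes. The numbers gave no sign of pairing: same-numbered libraries had deviations correlated at −0.0533 to −0.0435, and 0 of 6 correlated best with their own number. Technical scatter could hide a pairing, so this check cannot exclude one. Counts of genes called lower in other lists fell under median-ratio scaling to 7 (nucleation factors, from 11) and 2 (tropomyosins and myosins, from 5). Without neutrophil markers in the total they were 6 and 2, with 3 for adhesion adaptors (from 5), 1 for the SRF list (from 2) and 5 tubulin-list genes higher (from 3). Under median centring they were 7 for nucleation factors and 3 for tropomyosins, and 3 for the latter under quantile normalization. Signs turned for genes near 0. Capzb (−0.001) went to 0.115 by median ratio, 0.01 by quantiles, 0.071 by centring and 0.138 without neutrophil markers, with −0.023 to 0.015 without single libraries. Capza2 (−0.052) went to 0.063 by median ratio, 0.02 by centring and 0.086 without neutrophil markers. Wasf2 (−0.119) went to 0.017 without neutrophil markers, and Myl6 (0.01) was −0.006 to 0.025 without single libraries. The causes were not tested. Depth is unknown, so counting error is not known either.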

Other observations

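Markers of other cells differed between the fractions beside the actin genes, and their counts stand beside 20.4% of all tested genes called higher and 40.6% called lower. Dendritic cell markers were lower in 6 of 6 tested (summed level 103 to 104 FPKM for MHCII-lo and 42.1 to 44.3 FPKM for MHCII-hi), mast cell and basophil markers in 5 of 6 (829.9 to 857 and 367 to 377 FPKM), and erythroid markers in 7 of 8 (211 to 217.5 and 163 to 165 FPKM), by the limma test. T and NK cell markers were higher in 1 and lower in 3 of 6 tested (171 to 180.4 and 148 to 158 FPKM). Megakaryocyte and platelet markers were higher in 2 and lower in 1 of 5 tested (38.1 to 40.6 and 37.03 to 39.1 FPKM). B cell markers were tested for 2 of 8 genes, of which 1 was higher (13.4 to 15.5 and 16.6 to 17.4 FPKM). Endothelial markers were lower in 2 of 2 tested (14.8 to 15.4 and 9.49 to 10.2 FPKM) and stromal markers in 1 of 2 (4.87 to 5.25 and 3.27 to 3.54 FPKM). Their part in the differences of the actin genes was not tested.

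Further ratios of actin genes within a library, chosen after their values were seen, add to those given above. Arpc5 and Arpc5l together, set against the core subunit Arpc2, went from 0.623 ± 0.013 to 0.772 ± 0.0155 (SD, n = 3). Arpc1a and Arpc1b together went the other way, from 0.482 ± 0.00792 to 0.44 ± 0.0108. Cyfip1 and Cyfip2 together went from 0.8501 ± 0.0187 to 1.24 ± 0.0377 of the level of Nckap1l. Arhgdib went from 1.62 ± 0.0103 to 2.04 ± 0.0279 times the summed level of Rhoa, Rhog and Cdc42. In each of these 4 ratios the libraries of the fractions did not overlap.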
